A study of Drosophila melanogaster with 35 samples.

Results

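Binding of the histone methyltransferase Su(var)3-9 was compared with binding of HP5 across the genes of untreated Kc167 cells, a Drosophila melanogaster line derived from embryos. The comparison uses 7 of the 35 arrays in the series, 3 for Su(var)3-9 and 4 for HP5. The p-values also draw on the spread of the other arrays, some of them from cells after knock-down of HP1 or of white. The arrays were assigned to groups by their labels, and the pair of proteins was picked with earlier results known, as having some of the most similar profiles in the series. Both proteins were mapped by DamID, in which the bacterial adenine methyltransferase Dam is joined to a chromatin protein and leaves methylated adenines on the DNA near the places that protein visits. In the Su(var)3-9 group the cells were transfected with a plasmid for full-length Su(var)3-9 fused to Dam, in the HP5 group with one for full-length HP5 fused to Dam, and in the other channel of every array with the Dam plasmid alone. The fusion was labelled with Cy3 on 2 Su(var)3-9 arrays and 2 HP5 arrays, and with Cy5 on 1 Su(var)3-9 array and 2 HP5 arrays. The cells keep their own Su(var)3-9 and HP5, so the values describe an added, tagged copy. Nothing in the labels ties replicates to separate transfections, and the spread that the p-values rest on may therefore be technical.

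Su(var)3-9 places methyl groups on lysine 9 of histone H3, and HP1 binds that mark through its chromodomain. Both are classical components of the compact chromatin beside centromeres and on the small chromosome 4. HP5 was named in this study, which chose it from a published protein interaction map as an interaction partner of heterochromatin proteins. Each value below is a log ratio, fusion over Dam, of one cDNA probe on a median-centred array. It is read as log2, because the sources used here do not give the base. A level above 0 means more methylation by the fusion than by Dam alone, relative to the median probe of that array. The number of arrays limits the precision.

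Since the pair was picked for its similarity, the correlations of the profiles describe that choice and are no finding. Over 9933 probes the mean profiles correlated with Pearson's r = 0.852, and with 0.842 over the 9310 probes left without chromosome 4 and the genes nearest the centromeres. These are descriptions across probes, which are not independent replicates, and every array shares the Dam-only kind of reference. Among the 21 pairs of the 7 proteins in the series, only HP4 with HP5 gave a higher r on the levels of the model (0.873, against 0.849 for this pair). Su(var)3-9 correlated less with HP1 (0.641) than with HP5, and both proteins correlated negatively with Jra, a transcription factor mapped as a protein outside heterochromatin (-0.292 for Su(var)3-9 and -0.284 for HP5). Single arrays of the 2 proteins correlated at 0.586 to 0.791 over 12 pairs, with a median of 0.704. Arrays of one protein gave a median of 0.704 for HP5 over 6 pairs and 0.726 for Su(var)3-9 over 3 pairs. By Spearman's rho, the 3 Su(var)3-9 pairs gave 0.791 to 0.81, above all 12 pairs of one protein with the other (0.613 to 0.758), while the HP5 pairs spread from 0.53 to 0.833. By rank the Su(var)3-9 arrays thus resembled each other more than they resembled HP5 arrays, and by Pearson's r the ranges overlapped.

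Su(var)3-9 exceeded HP5 at 16 probes and fell below it at 1, by a limma model fitted to all 35 arrays with Benjamini-Hochberg adjustment over all probes and a threshold of 0.05. Of 9933 probes counted, these are 0.161% and 0.0101%, and at all 17 the arrays of the 2 groups did not overlap. At an unadjusted p under 0.05 there were 403 probes higher for Su(var)3-9 (4.06%) and 365 lower (3.67%). Arrays of the groups did not overlap at 476 probes with Su(var)3-9 above (4.79%) and 596 with Su(var)3-9 below (6%). Without Su(var)3-9 replicate 1, 11 probes were higher and 0 were lower, with 248 higher and 214 lower at an unadjusted p under 0.05. Of the 16, 10 passed again, and Der-2 passed only there. Without HP5 replicate 1 the count of higher probes was 9, without Su(var)3-9 replicate 2 it was 24 beside 12 lower, and without Su(var)3-9 replicate 3 it was 16 beside 7 lower, with 7 of the original 16 among them.

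**Figure D1:**
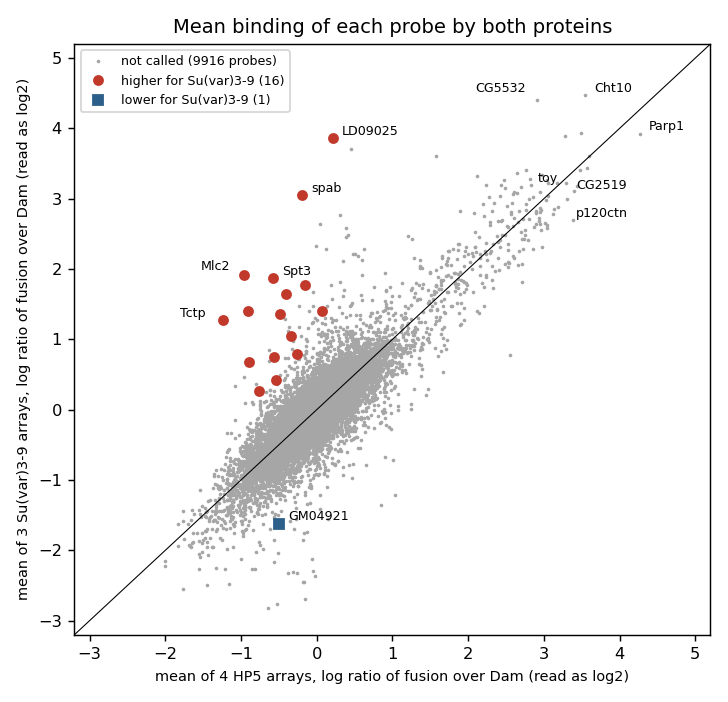
Mean log ratio of each probe on the 4 HP5 arrays (horizontal axis) and on the 3 Su(var)3-9 arrays (vertical axis), read as log2, with the line of equality. The 16 probes higher for Su(var)3-9 (red) lie where the HP5 mean is near or below 0. The 1 lower probe (blue square) is negative for both. Named probes of the shared set lie at high levels, most of them near the line. Above it lie CG5532 (4.41 for Su(var)3-9 against 2.91) and Cht10 (4.47 against 3.54).

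The levels behind the differences come from the same arrays and the same fit, so the split of the calls among the sets that follow was largely fixed by how the sets are defined. Su(var)3-9 was above 0 at 1569 probes (15.8%) and HP5 at 1822 (18.3%). Both were above 0 at 1052 probes, which is 67.0% of the Su(var)3-9 set and 57.7% of the HP5 set. None of these 1052 was called different, 14 of them were higher and 6 lower at an unadjusted p under 0.05, and their median difference was 0.04. Of the 517 probes above 0 for Su(var)3-9 alone, 15 were called higher. Of the 770 above 0 for HP5 alone, 0 were called lower, and 69 were lower at an unadjusted p under 0.05. Membership of one set only is therefore not a tested difference at most of these probes: the interval of the difference held 0 at 323 of the 517 and at 701 of the 770. The count of Su(var)3-9 probes above 0 was 812, 993 and 1042 without replicates 1, 2 and 3, and that of HP5 was 1150 without HP5 replicate 1. The count above 0 for both was 623 without Su(var)3-9 replicate 1 and 690 without replicate 3.

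The largest named difference was at spab, on arm 2R. The Su(var)3-9 arrays read 5.12, 2.02 and 2.03, and the HP5 arrays -0.67, -0.95, 1.17 and -0.32. Replicate 1 of Su(var)3-9 was far above the other 2, and the groups did not overlap. The difference was 3.27 ± 0.51 (SE of the limma model) with an adjusted p of 0.000828, and 2.22 with an adjusted p of 0.0114 without that array. The call was lost in a limma fit of only the 7 arrays compared (adjusted p = 0.377).

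Mlc2, on 3R, encodes the regulatory light chain of muscle myosin. It read 1.52, 2.04 and 2.18 for Su(var)3-9 and -1.18, -1.02, -1.17 and -0.49 for HP5. All Su(var)3-9 arrays lay above 1 and all HP5 arrays below 0. The difference of 2.90 ± 0.27 (SE) had the lowest adjusted p of any named gene in the limma fit, 4.41e-08, and 2.14e-07 without Su(var)3-9 replicate 1.

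Tctp, on 3R, encodes the translationally controlled tumour protein, a regulator of growth. It read 1.03, 1.17 and 1.61 for Su(var)3-9 and -1.92, -0.94, -1.37 and -0.74 for HP5. The difference was 2.50 ± 0.41 (SE), adjusted p = 0.00152 by limma, and 0.007 without Su(var)3-9 replicate 1. Spt3, also on 3R, encodes a subunit of the SAGA histone acetyltransferase complex. Its values were 1.35, 2.04 and 2.21 against -0.73, -0.34, -0.92 and -0.33. The Spt3 difference was 2.44 ± 0.35 (SE), with adjusted p = 0.000232, and 0.000317 without that array, by limma. At both genes the 2 proteins lay on opposite sides of 0.

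BigH1, on 3R, encodes the linker histone of the early embryo and germline. The Su(var)3-9 arrays spread from 0.44 (replicate 2) through 1.57 to 2.07, and the HP5 arrays read -0.75, -0.53, -0.25 and -0.43. The groups did not overlap in spite of that spread, and the difference was 1.89 ± 0.26 (SE), adjusted p = 0.000158 by limma. Without Su(var)3-9 replicate 1 its adjusted p was 0.00466. In a limma fit of only the 7 arrays compared it was 0.131, so the call was lost there.

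CG32512 and dtn are both on chromosome X. CG32512 read 1.36, 1.33 and 1.5 for Su(var)3-9 and -1.20, -0.76, -1.08 and -0.57 for HP5, the smallest spread among Su(var)3-9 arrays of these genes. The difference was 2.26 ± 0.41 (SE), adjusted p = 0.00622, but the call was lost without Su(var)3-9 replicate 3 (limma). At dtn the Su(var)3-9 arrays read 0.88, 2.11 and 2.30 and the HP5 arrays -0.08, 0.50, -1.10 and 0.08. Its difference of 1.91 ± 0.41 (SE) had an adjusted p of 0.0351 in limma, and the call was lost when any one of Su(var)3-9 replicate 2 or 3 or HP5 replicate 1 or 3 was left out.

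The last named genes that passed with and without Su(var)3-9 replicate 1 were otk2 and CG15549. otk2, on 2R, encodes a receptor tyrosine kinase-like protein of Wnt signalling. It read 1.24, 1.25 and 1.74 against -0.47, 0.08, 0.40 and 0.25, so HP5 was near 0 there. The difference was 1.36 ± 0.25 (SE), adjusted p = 0.00876 by limma, and the call was lost without Su(var)3-9 replicate 3 or HP5 replicate 1. CG15549, on 3R, read 0.57, 0.82 and 0.97 against -0.83, -0.10, -0.09 and -0.02, and HP5 replicate 1 lay below the other 3. The CG15549 difference was 1.08 ± 0.20 (SE), adjusted p = 0.00796, and the call was lost without that HP5 array (limma).

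Further named genes passed with all arrays and not without Su(var)3-9 replicate 1. CG4880, on X, differed by 1.99 (adjusted p by limma 0.00904 with all arrays and 0.0617 without that array). hry, on 3L, encodes the pair-rule repressor Hairy, and it differed by 1.54 (0.0263 and 0.0577). CG9953, on 3L, differed by 1.37 (0.0241 and 0.0559), and its other probe by 0.15 with an adjusted p of 0.988. ATPsynC, on 3R, encodes subunit c of mitochondrial ATP synthase and differed by 1.34 (0.0217 and 0.0893). Tapdelta, on 2R, encodes a subunit of the translocon-associated protein complex of the endoplasmic reticulum. It lies outside the rule for named genes and was added after its values were seen, with a difference of 1.02 (0.0369 and 0.235). At these 5 genes the difference itself changed little without the array: for hry it was 1.66 and for ATPsynC 1.34. All 5 lost their call also without Su(var)3-9 replicate 3.

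**Figure D2:**
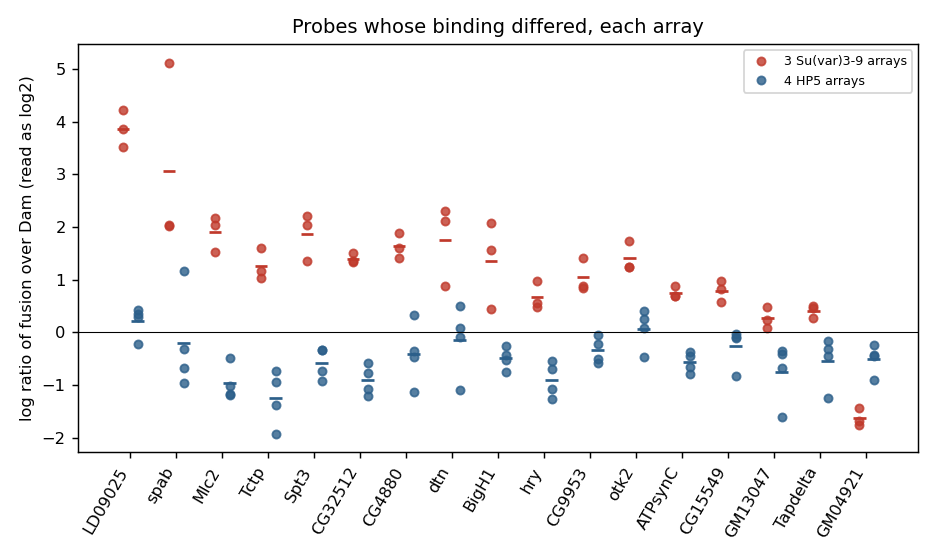
Log ratio of fusion over Dam, read as log2, on each of the 3 Su(var)3-9 arrays (red) and 4 HP5 arrays (blue) for the 17 probes called different, in order of the difference, with bars at group means. At 16 probes every red point lies above every blue point, and at GM04921 every red point lies below.

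Of the 16 higher probes, 14 carry 1 gene name and 2 are unnamed here. The unnamed probe LD09025 had the largest difference of all, 3.66 ± 0.19 (SE), adjusted p = 3.9e-14 by limma. It read 3.86, 3.51 and 4.22 for Su(var)3-9, 0.43, -0.21, 0.35 and 0.29 for HP5, and at most 0.82 on the 32 arrays without the Su(var)3-9 fusion. A high reading on 1 fusion alone is also what the HP5 probe showed, where plasmid DNA can add signal: 5.21, 4.32, 3.45 and 3.12 on the HP5 arrays against 0.18, -0.14 and -0.05 on the Su(var)3-9 arrays. The HP5 probe was left out of every count for that reason and serves only to check the labels. The gene of Su(var)3-9 was not analysed here, and whether plasmid DNA adds to LD09025 was not tested. Leaving it out as well makes 15 higher probes. The unnamed probe GM13047 was higher by 1.08 (adjusted p = 0.0158 by limma, and 0.094 without Su(var)3-9 replicate 1).

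The only probe lower for Su(var)3-9 was GM04921, unnamed here. It read -1.67, -1.43 and -1.76 for Su(var)3-9 and -0.90, -0.23, -0.44 and -0.43 for HP5. Both proteins were thus below 0, Su(var)3-9 more so, by -1.11 ± 0.24 (SE), adjusted p = 0.0405 by limma. The call was lost without Su(var)3-9 replicate 1 (0.175) or replicate 3, or without HP5 replicate 2, 3 or 4. No named gene was lower.

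HP5 was not called above 0 at any of the 16 probes higher for Su(var)3-9 (18.3% of all probes). Su(var)3-9 was called above 0 at 15 of the 16, all but GM13047 (15.8% of all probes). HP5 was called below 0 at 8 of those 15 (18.7% of all probes), which are Mlc2, Tctp, Spt3, CG32512, BigH1, hry, ATPsynC and Tapdelta. The contrast that called the probes used these Su(var)3-9 and HP5 values, so nothing is read from those counts. The other 7 had an HP5 level that was not called. HP1 was called above 0 at 0 of 16 (8.48% of all probes), HP3 at 0 (4.38%), HP4 at 0 (19.7%) and HP6 at 0 (7.05%), while Jra was above 0 at 2 (10.8%). HP4 was called below 0 at 6 of the 16 (21.8% of all probes), with a median level of -0.32, and HP1 at 3 (2.95%), with a median of -0.40. These levels come from other arrays of the same fit and describe the 16 probes only.

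By arm, the named called probes were 6 of 2068 on 3R, 3 of 1769 on 2R, 3 of 1327 on X, 2 of 1650 on 3L and 0 of 1615 on 2L. Chromosome 4 had 0 of 60, too few probes for the overall share of 0.161% to give a call there. No 2 called genes were neighbours among the measured genes. The closest pair, CG15549 and ATPsynC, had 34 genes between them. Of 56 measured genes beside the called ones, 2 were higher at an unadjusted p under 0.05, DCAF12 next to Spt3 (0.80 ± 0.35, SE) and DENR next to CG4880 (0.53 ± 0.26, SE), and 1 was lower, Hexim near BigH1 (-0.71 ± 0.30, SE). The smallest of their adjusted p-values in limma was 0.508. Of all named genes 4.67% were higher and 3.95% lower at that unadjusted threshold. The counts among the neighbours are no more than those shares would give.

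The genes with the highest levels for both proteins were picked among those that did not pass. That condition removed no probe, since 0 of the 1052 above 0 for both were called. Parp1, the poly(ADP-ribose) polymerase gene beside the centromere of 3R, read 4.52, 3.49 and 3.75 for Su(var)3-9 and 4.70, 4.04, 4.23 and 4.09 for HP5. The groups overlapped, and the 95% interval of the difference ran from -1.32 to 0.74. Cht10, a chitinase gene in the pericentric part of 2L, read 6.16, 3.62 and 3.62 against 3.32, 3.57, 3.57 and 3.69. Its difference of 0.98 (95% interval -0.15 to 2.12) came to 0.08 without Su(var)3-9 replicate 1. toy, a Pax6 homologue on chromosome 4, read 3.31, 2.94 and 3.09 against 3.76, 2.83, 3.36 and 3.67, with an interval from -1.16 to 0.78. Its other probe was not bound by either protein, with means of -0.68 and -0.61.

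CG2519, on 3R, differed by -0.07 (95% interval -1.05 to 0.92). p120ctn, the p120 catenin gene on 2R, differed by -0.22 (-1.11 to 0.67) at one probe and by 0.71 (-0.50 to 1.92) at its other, where HP5 replicate 3 read 0.34 and the other HP5 arrays 2.93 to 3.29. CG5532, on 2R, had the widest interval, -0.57 to 3.59: Su(var)3-9 read 6.96, 3.27 and 3.00, and HP5 read 4.81, 2.45, 0.32 and 4.05. Without Su(var)3-9 replicate 1 that difference fell from 1.51 to 0.23, and another probe of CG5532 was near 0 for both proteins. A miss of the threshold does not show equal binding, since each of these intervals reaches beyond 1 in at least one direction. Over all 9933 probes the median SE was 0.274, and the interval lay within 1 of 0 at 7611 probes, or 76.6%.

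**Figure D3:**
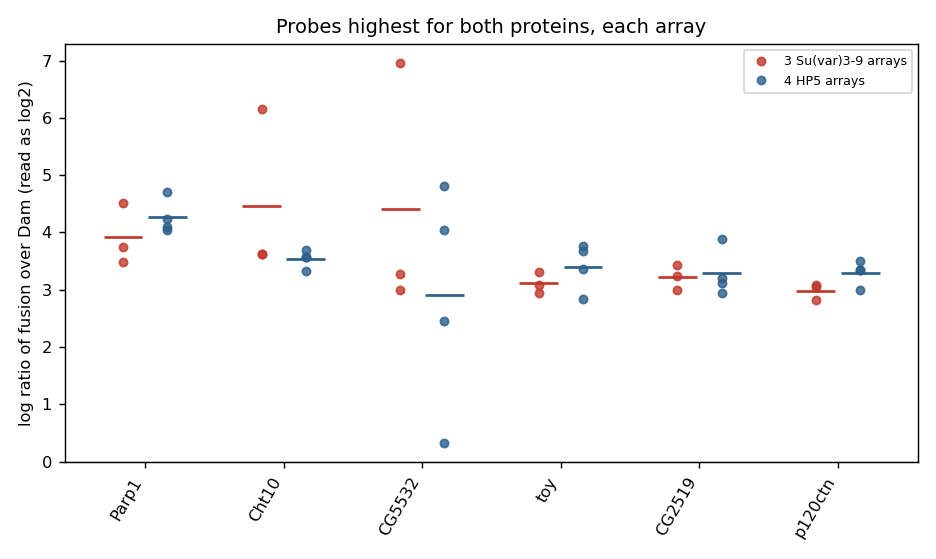
Log ratio of fusion over Dam, read as log2, on each Su(var)3-9 array (red) and HP5 array (blue), with bars at group means, for the 6 genes with the highest mean over both proteins. The groups overlap at every gene, and replicate 1 of Su(var)3-9 stands above the other 2 at Cht10 and CG5532.

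Several of the largest differences rested on that array and were not called. Fst, on 3R, read 10.83 on Su(var)3-9 replicate 1, the highest value of the 7 arrays, and 0.19 and 0.12 on the other 2, so its difference of 3.21 ± 1.25 (SE) had an adjusted p of 0.469 by limma. glu, the condensin subunit gene on 2L, read 7.52 there and -0.01 and 0.42 on the others. In the other direction MTA1-like, on 3R, read -8.17 on replicate 1 and 0.22 and -0.11 on the others. Another probe of glu was below 0 on every array, with -2.23, -2.2 and -2.33 against -1.46, -1.56, -1.34 and -0.98 for HP5. Its difference of -0.94 did not pass (adjusted p = 0.234 by limma). These genes were chosen after their values were seen. Just outside the threshold lay CG11333, PGAP3 and CG7551, higher with adjusted p = 0.059 each by limma, and the unnamed AT15112 and Tig, lower with 0.0835 and 0.0947.

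Chromosome 4 was bound strongly by both proteins. Of its 48 measured genes 31 were above 0 for Su(var)3-9 (64.6%, against 16.6% of all named genes). For HP5 34 were above 0 (70.8%, against 18.9%), and 28 were above 0 for both. By limma 0 were called different in either direction. At an unadjusted p under 0.05, 3 were higher (6.25%, against 4.67% of all named genes) and 4 lower (8.33%, against 3.95%). The median level of these genes was 1.33, 1.12 and 0.93 on the Su(var)3-9 arrays and 0.78, 0.91, 1.02 and 0.99 on the HP5 arrays, so the groups overlapped. The median difference was 0.09 on chromosome 4 (-0.08 within the Cy5 arrays and -0.06 without Su(var)3-9 replicate 1) and -0.02 over all 7702 named genes, of which 14 were called higher and 0 lower. Kif3C, a kinesin gene, read 2.51, 2.43 and 2.93 against 3.03, 3.34, 2.73 and 3.06. CG1674 had the largest difference downward, -1.27 ± 0.37 (SE), with -0.41, -0.13 and -0.28 for Su(var)3-9 and 1.05, 0.31, 2.54 and 0.02 for HP5, and did not pass (adjusted p = 0.234 by limma).

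Genes beside the centromeres were bound to very different extents. A list of 12 pericentric genes had 9 above 0 for Su(var)3-9 (75%, against 16.6% of all named genes). For HP5 it had 10 above 0 (83.3%, against 18.9%). On that list 0 were called different, and the median difference was -0.32. At an unadjusted p under 0.05, 1 was lower (8.33%, against 3.95% of all named genes) and 0 were higher. Nipped-B, the cohesin loader gene of 2R, read 2.77, 2.61 and 2.76 for Su(var)3-9 and 3.94, 1.75, 2.76 and 2.79 for HP5. CG17493 read -0.22, -0.22 and -0.09 against 0.27, 0.99, 1.07 and 1.06, a difference of -0.98 ± 0.39 (SE) that did not pass (adjusted p = 0.496 by limma). Among the 500 measured genes nearest the centromeres, 100 on each of 5 arms, 1 was called higher, CG32512, and 0 lower. Their median difference was -0.09, with array medians of 0.01, 0.01 and 0.04 for Su(var)3-9 and 0.07, 0.08, 0.05 and 0.06 for HP5. Those medians did not overlap but lay within 0.1 of 0. Of the 500 genes 119 were above 0 for Su(var)3-9 (23.8%, against 16.6% of all named genes), 142 for HP5 (28.4%, against 18.9%) and 99 for both, so most were above 0 for neither. The 100 genes nearest the telomeres had 0 called and a median difference of -0.10. At an unadjusted p under 0.05 there were 7 each way, or 7%, against 4.67% higher and 3.95% lower of all named genes. Of these, 5 were above 0 for Su(var)3-9 and 7 for HP5, shares of 5% and 7% that lie below those of all named genes.

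Other gene groups had 0 members called in either direction by limma, and at most 4 of a list in one direction had an unadjusted p under 0.05. The largest such share was 8.82%, 3 lower of 34 cytoplasmic ribosomal protein genes. Of all named genes 4.67% were higher and 3.95% lower. Genes of heterochromatin factors (30 measured) had 3 above 0 for each protein. That is 10%, below the 16.6% for Su(var)3-9 and 18.9% for HP5 of all named genes. Among the highest members was sov, which is needed for heterochromatin maintenance. It read 1.99, 2.52 and 1.92 against 2.41, 2.56, 2.52 and 2.05. Su(var)2-HP2, an HP1 partner, had -0.14, -0.01 and 0.59 against -0.70, -0.46, -0.58 and -0.43, a difference of 0.72 ± 0.21 (SE) with an adjusted p of 0.253. The 31 chromatin remodelling and transcription genes had median levels of -0.02 for Su(var)3-9 and -0.05 for HP5. Their highest mean of both was at enok, a histone acetyltransferase gene, with 2.57, 3.05 and 2.18 against 3.50, 2.67, 2.70 and 2.61. The remodeller kis read -1.55, -1.66 and -1.25 against -1.01, -0.73, -0.22 and -0.26. The 35 replication and cell cycle genes had median levels of -0.3 for Su(var)3-9 and -0.33 for HP5. Their highest mean of both was at PolA1, a DNA polymerase alpha subunit gene, with 2.77, 2.55 and 2.51 against 3.10, 1.55, 2.99 and 2.71. No call was made at 21 Polycomb targets, where salm, a transcription factor gene of wing patterning, had 0.85, 1.48 and 1.49 against 0.40, 0.59, -0.79 and -0.20 (adjusted p = 0.234).

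Cell surface and housekeeping lists were alike in this. The 28 cell adhesion genes had median levels of 0.14 for Su(var)3-9 and 0.27 for HP5. Their highest mean of both was at kug, an atypical cadherin gene, with 3.27, 3.42 and 3.00 against 2.62, 3.05, 3.47 and 3.10. The 28 ion channel and synaptic genes had median levels of 0.04 for Su(var)3-9 and 0.02 for HP5. Their highest mean of both was at sei, a potassium channel gene. It read 8.01 on Su(var)3-9 replicate 1 and 1.86 and 0.97 on the others, against 2.10, 1.77, 0.30 and 2.13. The lists of 34 chitin and cuticle genes, 34 cytoplasmic and 61 mitochondrial ribosomal protein genes, 37 proteasome genes and 13 AP-1 and JNK genes likewise held 0 calls. On every one of these lists the Su(var)3-9 and HP5 array medians overlapped.

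**Figure D4:**
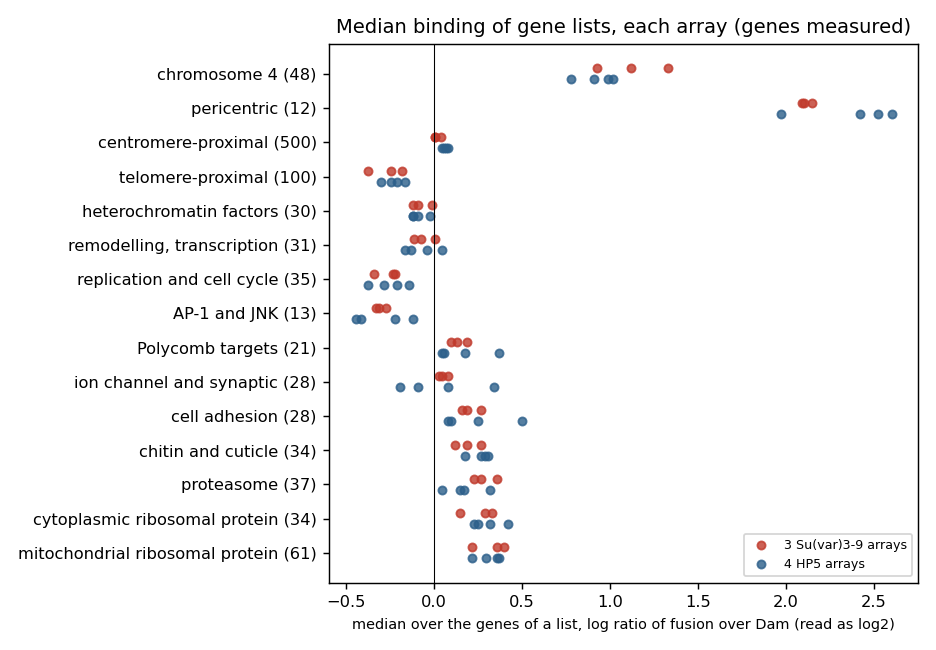
Median log ratio over the genes of each list, read as log2, on each Su(var)3-9 array (red) and each HP5 array (blue), with the number of measured genes in brackets. Chromosome 4 and the pericentric list lie at or above 0.78 on all arrays, every other list lies within about 0.5 of 0, and the groups fail to overlap only for the centromere-proximal genes.

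The direction of the small differences varied with the cDNA library of the probe, which is described here without a test. Probe names start with the prefix of their clone library, such as GH for adult head, LD and RE for embryo, RH for head, AT for testis, GM for ovary and SD for cultured Schneider cells. At an unadjusted p under 0.05, 6.8% of GH probes were higher for Su(var)3-9 and 2.44% lower, and of AT probes 5.31% and 1.55%. RE probes went the other way, with 1.58% higher and 5.86% lower, as did RH probes with 0.817% and 4.63%. The array medians of the 2 proteins overlapped for AT, LD, RE and RH probes and did not overlap for GH probes. RH probes were above 0 in 23.0% for Su(var)3-9 and in 40.6% for HP5, and RE probes in 18.5% and 29.4%. Of the 770 probes above 0 for HP5 alone, 58.6% were RE or RH clones, against 19.7% of the 517 for Su(var)3-9 alone and 27.8% of all probes.

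The contrast between the RH and GH libraries was also computed on single arrays. The median of RH probes minus that of GH probes was 0.43, 0.25 and 0.36 on the Su(var)3-9 arrays and 0.72, 0.52, 0.56 and 0.31 on the HP5 arrays, so the groups overlapped. Divided by the median absolute deviation of its array, it was 0.69, 0.44 and 0.66 against 0.89, 0.80, 1.07 and 0.88, and the groups did not. That scaling was chosen after the values were seen and has no test. On the same scale the HP4 arrays alone ran from 0.08 to 0.87. Those of HP3 ran from 0.82 to 1.37 and those of HP6 from 0.55 to 0.79. The gap is thus small beside the spread of the HP4 arrays, and a higher RH median is not particular to HP5. GH stayed mostly higher and RE and RH mostly lower within the Cy3 arrays, within the Cy5 arrays and without Su(var)3-9 replicate 1. LD probes leaned less steadily: 5.05% were higher with all arrays, but 2.79% were higher and 3.35% lower within the Cy5 arrays, and 3.23% and 3.31% without HP5 replicate 1. Without Su(var)3-9 replicate 1 GH had 3.98% higher and 1.33% lower, and RH 0.272% and 3.13%. The 16 called higher probes, 0.161% of all probes, were 5 of 2475 LD, 5 of 543 GM and 3 of 2030 RE probes. The others were 1 of 904 AT, 1 of 1883 GH and 1 of 734 RH probes. The 1 lower probe was also a GM clone. Whether properties of the clones, such as length or place on the array, account for this was not tested.

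**Figure D5:**
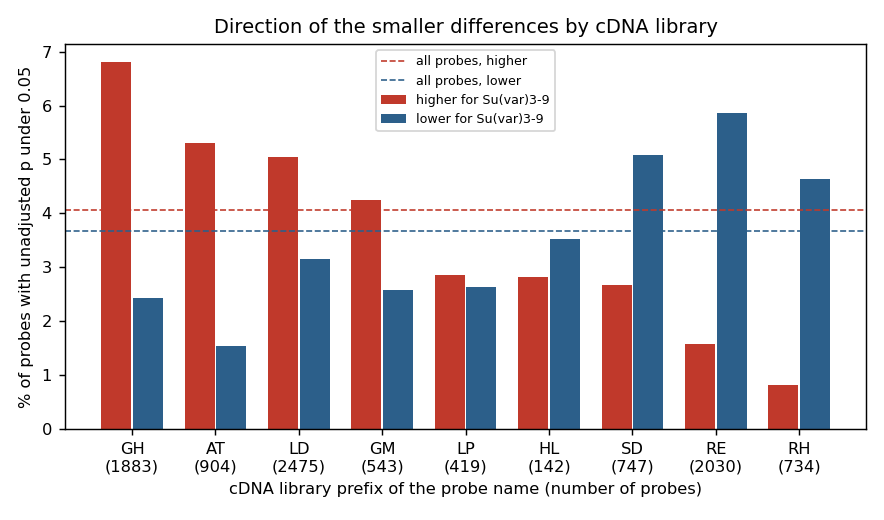
Share of probes with an unadjusted p under 0.05, in percent, higher (red) or lower (blue) for Su(var)3-9 than for HP5, by cDNA library prefix with the number of probes, and dashed lines for all probes (4.06% higher and 3.67% lower). GH, AT, LD and GM lean towards Su(var)3-9, SD, RE, RH and slightly HL towards HP5, and LP is about even. LD loses its lean within the Cy5 arrays and without HP5 replicate 1.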

How the data were processed

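The table deposited by the authors holds log2-scale ratios (base assumed) of fusion over Dam for 9993 probes on 35 cDNA arrays with 2 colours. How the authors scanned, corrected and normalised them, and on which build, the sources used here do not say, and signal over background was not analysed. The highest missing count among the 7 arrays was 74 probes. Symbols came from the platform's gene names and a RefSeq table of the Release 6 assembly: 8682 probes have 1 gene, 298 several and 1013 are unnamed here.

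Arrays were grouped by title and centred on their medians. A limma model (limma 3.58.1, R 4.3.3) took all 35 arrays, with a mean for each of 11 groups and a term for dye, and left 23 residual degrees of freedom. The groups include HP3 and HP6 arrays after knock-down of HP1 or of white, so part of the pooled spread comes from treated cells. Probes with values on fewer than 2 arrays in any group were dropped, 59 in all, which kept 9934. The HP5 probe was dropped from counts after the fit. Tests were two-sided with Benjamini-Hochberg adjustment over all probes, and the threshold was 0.05. The same model gave each protein's level against 0. The procedure was tested on simulated data.

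Named genes are the 12 largest differences each way that passed with and without Su(var)3-9 replicate 1 with arrays that do not overlap. Added to them are the 4 largest each way that failed without it. The last are the 6 highest means among probes above 0 for both whose difference did not pass. Gene lists average the probes of a gene, and up to 3 called members of each list are named. Members with extreme values were added after the values were seen. The comparison, the lists and the rules were chosen with earlier results of these data known. Replicate numbers are shared by the groups, but same-numbered arrays did not deviate together (correlations -0.0392, -0.00967 and 0.00282), so the main fit has no pairing.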

Additional observations from a re-analysis of the deposited data

Results flagged for a closer look

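CG15549 alone stood out by a single array among the 44 groups of 4 HP5 values examined, and chance alone marks about 1 in 20 such groups. At CG15549, HP5 replicate 1 read -0.83, while the other 3 HP5 arrays lay between -0.10 and -0.02. Its difference from Su(var)3-9 was called with all arrays and lost without that array.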

How the results depend on the processing

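No called difference changed direction under any of the 18 alternatives, or 17 for BigH1, which has no value on one array. Uncalled differences did, near 0 at toy (-0.43 to 0.05) and CG2519 (-0.21 to 0.15), and from large values without Su(var)3-9 replicate 1 at Fst (3.21 to -0.30), MTA1-like (-2.49 to 0.21) and sei (2.02 to -0.16). The number of probes higher for Su(var)3-9 (16) was 9 with arrays scaled to one median absolute deviation, 6 with only the 7 arrays compared, 102 with array weights, 5 within Cy3 arrays and 2 within Cy5 arrays. It ranged from 9 to 24 with single arrays left out. The 6 probes called with only the 7 arrays were LD09025, Mlc2, Tctp, Spt3, CG32512 and CG9953. The other called probes, among them spab, BigH1, dtn, otk2 and CG15549, lost their call there. The number lower (1) was 0 with that scaling, with only the 7 arrays and within either dye, 5 without the doubted arrays HP3 replicate 2 and HP6 replicate 3, 111 with array weights, and 0 to 12 with single arrays left out. All 17 calls were among those made with array weights. With the replicate block, 16 probes were higher and 0 lower; the arrays share only a number. The probes above 0 for Su(var)3-9 (1569) came to 2470 with array weights, 960 within Cy3, 157 within Cy5 and 812 to 1618 with arrays left out. Those for HP5 (1822) came to 335 within Cy5 and 1150 to 1813, and those for both (1052) to 1746 with array weights, 600 within Cy3, 115 within Cy5 and 623 to 991. The lone Cy5 Su(var)3-9 array is assumed there to vary like the other groups. LD09025 was called in all 18 settings, and Mlc2 and Tctp in all but the Cy5 arrays. The causes of these changes were not tested.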
